A study of Mus musculus with 9 samples.

Results

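The genes of glutathione synthesis and use followed here were Gclc, Gclm, Gss, Gsr, Glrx, Ggct, Cth and Mgst1. They were chosen by symbol for their roles, with earlier results of these data known. Shares of all tested genes printed beside their counts are therefore a description. Each of these 8 symbols matched 1 row of the 16509 genes in the deposited table. RNA was measured in MC38 cells, a mouse colorectal cancer line, in 9 libraries of 3 groups with 3 replicates each. Ctrl cells received vehicle, which the sample labels name as DMSO and the study's text as PBS. Cu-Cys cells received copper with cystine, the oxidised dimer of cysteine. Cadict cells received a nanodrug that carries the same copper and cystine pair together with glucose oxidase and the EGFR-targeting peptide GE11. The dose and time of treatment of these libraries were not given in the sources used here. The study describes its cell experiments as repeated independently, and the labels do not say which culture each library came from, so p-values measure the spread between these libraries.

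Glutathione is a tripeptide of glutamate, cysteine and glycine and the main soluble thiol of animal cells. Glutamate-cysteine ligase joins the first pair of residues. Its catalytic subunit is encoded by Gclc and its modifier subunit, which raises the activity of the catalytic one, by Gclm. Glutathione synthetase (Gss) adds the glycine. Cystathionine gamma-lyase (Cth) releases cysteine from cystathionine at the end of the transsulfuration pathway, and glutathione reductase (Gsr) returns oxidised glutathione to its reduced form with NADPH. Glutaredoxin (Glrx) uses glutathione to reduce mixed disulfides of proteins, microsomal glutathione S-transferase 1 (Mgst1) conjugates it to lipophilic compounds, and gamma-glutamylcyclotransferase (Ggct) cleaves gamma-glutamyl amino acids and so takes part in the turnover of glutathione.

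In cancer cells, the ligase subunits are textbook targets of the transcription factor NRF2, which binds the antioxidant response element, whereas Cth is a known target of ATF4 in amino acid shortage. RefSeq windows of the 250 bases before the gene's start (assembly GRCm38.p6, whereas the expression table was made on another build) were at hand for 5 of the 8 genes, namely Gclm, Gss, Glrx, Ggct and Mgst1. Both strands were searched for the antioxidant response element core TGACNNNGC, the C/EBP-ATF response element core TGATGNAA, the metal response element core TGCNCNC and the AP-1 site TGANTCA. The antioxidant response element core was present in 1 copy in Gclm, Ggct and 1 of the 2 windows of Mgst1, and in 10.2% of all 32851 promoter windows. It began 134 bases before the start in Gclm, 174 bases in Ggct and 56 bases in Mgst1. In that Mgst1 window only the first 39 bases precede an annotated exon, so the match lay past that exon's start. In Ggct the first 167 bases precede one and hold the match. The metal response element core, which 44.4% of all windows held, occurred at 2 places in Gclm, 138 and 72 bases before the start, the first of them overlapping the antioxidant response element core. It occurred once in Glrx. The AP-1 site was found in Glrx alone among these genes, 98 bases before the start, and in 6.75% of all windows. The C/EBP-ATF core, held by 3.45% of all windows, was in none of these windows, and Gss held none of these letter patterns. The windows of Gclm and Ggct are printed as those of genes that were higher under Cadict and hold the antioxidant response element core, that of Gss as one of a gene that was higher under Cadict with TMM scaling and holds none of the patterns, and that of Glrx as one of a gene that did not rise in any comparison. Each is given 5′ to 3′ on the gene's strand, with matches in capitals, up to the first annotated exon of the gene.
Gclm, chr3:122245307-122245556, plus strand: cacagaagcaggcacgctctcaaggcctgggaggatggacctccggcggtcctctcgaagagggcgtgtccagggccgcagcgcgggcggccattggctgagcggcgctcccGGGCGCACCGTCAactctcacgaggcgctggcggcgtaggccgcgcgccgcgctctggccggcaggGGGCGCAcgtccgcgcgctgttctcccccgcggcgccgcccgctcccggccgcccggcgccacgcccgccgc
Ggct, chr6:54992951-54993117, minus strand: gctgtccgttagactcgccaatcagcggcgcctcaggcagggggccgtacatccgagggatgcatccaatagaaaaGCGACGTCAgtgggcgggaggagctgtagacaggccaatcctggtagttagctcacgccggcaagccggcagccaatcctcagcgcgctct
Gss, chr2:155592811-155593060, minus strand: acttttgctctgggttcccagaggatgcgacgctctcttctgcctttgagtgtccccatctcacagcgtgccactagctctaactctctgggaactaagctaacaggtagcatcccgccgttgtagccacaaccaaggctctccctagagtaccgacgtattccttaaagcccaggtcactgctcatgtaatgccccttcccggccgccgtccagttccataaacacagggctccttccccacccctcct
Glrx, chr13:75839635-75839867, plus strand: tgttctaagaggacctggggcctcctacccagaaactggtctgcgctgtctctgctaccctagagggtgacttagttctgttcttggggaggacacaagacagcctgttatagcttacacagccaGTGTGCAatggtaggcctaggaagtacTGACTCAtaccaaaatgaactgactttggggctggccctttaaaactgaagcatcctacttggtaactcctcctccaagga
In the Gclm run the longer block of capitals joins a metal response element core and the antioxidant response element core, both read on the minus strand, and the shorter block is the other metal response element core. In Ggct the capitals are the antioxidant response element core on the opposite strand. In Glrx the first block is a metal response element core and the second the AP-1 site. A match in letters is a description of the sequence, and no binding was measured.

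The total expected count was 17905769 to 18293060 per library, so the floor of 3 counts amounted to 0.164 to 0.168 CPM, which are counts divided by the library size (counting error only). The 100 most abundant genes held 17.3% ± 0.11 (SD, n = 3) of counts in Ctrl, 18.0% ± 0.14 in Cu-Cys and 30.4% ± 0.67 in Cadict libraries. TMM scaling, which sets libraries level on the bulk of genes, gave factors of 1.26 to 1.27, 1.21 and 0.64 to 0.67 in these groups. After this scaling the floor of 3 counts differed between groups, with 0.13 CPM in Ctrl replicate 1 and 0.25 in Cadict replicate 1. Over all 11949 tested genes, the middle log2 fold change in Cadict against Ctrl was -0.13 with TMM and -1.08 with library totals alone. The corresponding medians were -0.10 and -0.98 in Cadict against Cu-Cys, and 0.01 and -0.06 in Cu-Cys against Ctrl. On log2(TPM + 1) of the deposited levels per transcript length, without TMM scaling, the medians in these 3 comparisons were -1.13, -0.96 and -0.12. Levels below are TMM-scaled CPM unless stated. The rank of a gene's change among all tested genes is given because it does not rest on the choice between TMM and library totals. Replicates differed more in Cadict (chi-square per gene 3.65 to 23.2 over pairs) than in Ctrl (1.89 to 2.06) or Cu-Cys (2.67 to 4.54). The groups shared 1 estimate of the spread per gene in the fit, so SE and p-values do not reflect this difference. In Cu-Cys against Ctrl 5381 of 11949 genes passed, and 6626 of 12079 without Cadict replicate 2. Of the epithelial markers examined, Epcam had 0 counts in all Ctrl and Cu-Cys libraries, and 6 of 8 were in the table. Their summed level was 5.32 to 6.83 CPM in Ctrl, 3.97 to 4.38 in Cu-Cys and 24.0 to 26.1 in Cadict. The 3 fibroblast markers summed to 54.6 to 61.3, 29.0 to 31.1 and 11.3 to 16.3 CPM. The blood cell markers summed to at most 0.34 CPM in any library and the endothelial ones to at most 2.44. The metal-binding metallothioneins Mt1 and Mt2 together had 141.4 to 155.0 CPM in Ctrl, 410.4 to 411.7 in Cu-Cys and 2490.5 to 3304.8 in Cadict. The part of these shifts in the results below was not tested.

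With TMM scaling, both ligase subunits rose under each treatment, with a different balance between them. Gclm rose 11.3-fold in Cadict and 1.84-fold in Cu-Cys over Ctrl, Gclc rose 2.65-fold and 2.21-fold, and Cth rose 16.5-fold in Cadict with no detectable change in Cu-Cys. In Cadict against Ctrl, 6 of the 8 genes passed the test upward (adjusted p at most 0.05 in edgeR's quasi-likelihood test) beside 40.6% of all tested genes, and 1 passed downward beside 47.1%. These were Gclc, Gclm, Gss, Ggct, Cth and Mgst1 upward and Glrx downward. Under library totals the counts were 4 (Gclc, Gclm, Ggct and Cth) beside 18.1% of all tested genes upward and 3 beside 73.1% downward. Against Ctrl, 5 genes passed upward in Cu-Cys (Gclc, Gclm, Gss, Gsr and Ggct) beside 22.6% of all tested genes and 0 downward beside 22.4%, and library totals gave the same counts beside 15.4% and 28.9%. In Cadict against Cu-Cys, 6 passed upward beside 40.3% and 2 downward beside 45.6%, and library totals gave 3 upward beside 17.3% of all tested genes and 5 downward beside 72.0%. Fewer cells of a type and less RNA per cell cannot be told apart in such bulk RNA.

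At the study's own threshold, a fold change of at least 2 with an adjusted p of at most 0.001, 5 of the 8 were called higher in Cadict against Ctrl (Gclc, Gclm, Gss, Ggct and Cth), beside 20.7% of all tested genes. With library totals 3 were called (Gclm, Ggct and Cth) beside 6.93%, and Gss also lay under 2-fold without Cadict replicate 2 (log2 fold change 0.96) and with both other filters on low counts (0.999 and 0.98). For Cu-Cys against Ctrl the 1 gene called higher was Gclc, beside 0.167% of all genes. In Cadict against Cu-Cys the 3 genes called higher were Gclm, Ggct and Cth, beside 18.6%. The libraries of the groups compared did not overlap in TMM-scaled CPM for 7 of the 8 genes in Cadict against Ctrl, beside 87.5% of all tested genes. The numbers were 6 genes beside 61.2% in Cu-Cys against Ctrl and 7 genes beside 85.0% in Cadict against Cu-Cys. These shares of non-overlapping genes were near the background in every comparison.

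**Figure D1:**
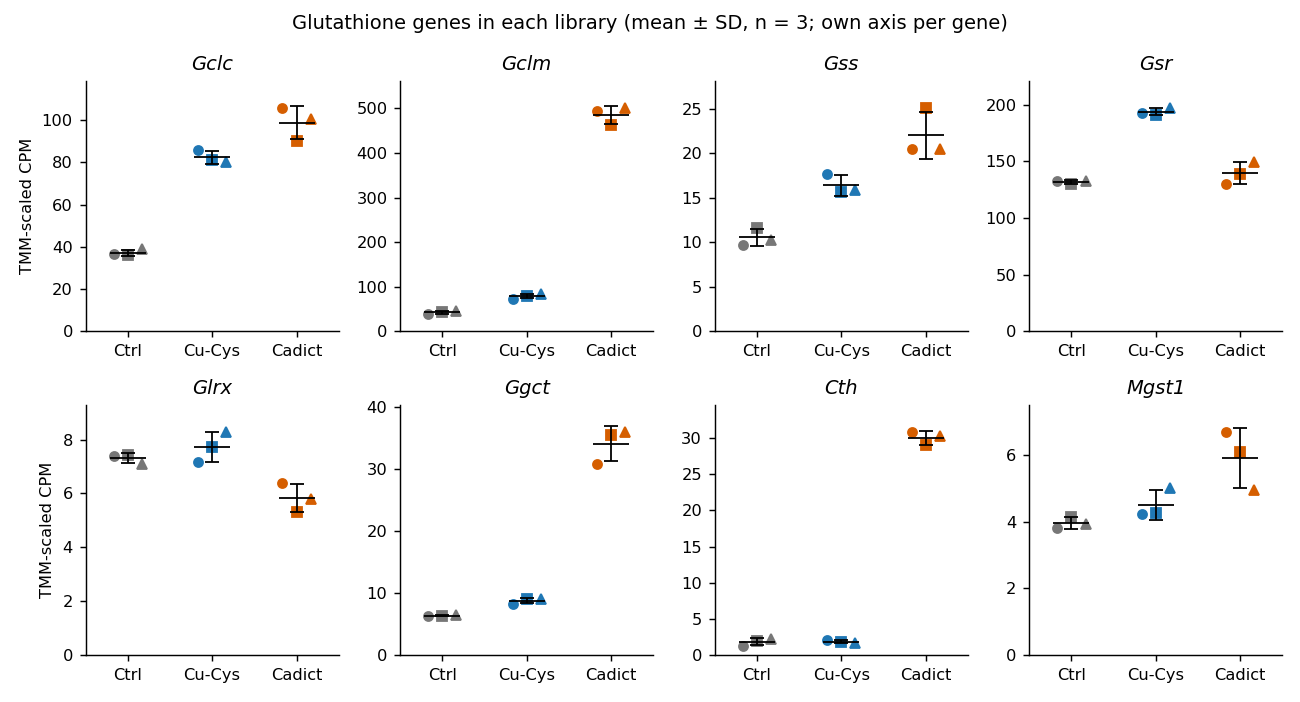
TMM-scaled CPM (y axis, linear from 0, own range per gene) of the 8 glutathione genes in each library of Ctrl, Cu-Cys and Cadict (x axis). Circles, squares and triangles are replicates 1, 2 and 3, and bars the mean ± SD (n = 3). Gclm, Ggct and Cth stood apart in Cadict, whereas Gsr was highest in Cu-Cys.

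Gclc (Entrez 14629) encodes the catalytic subunit that carries out the first step. Its TMM-scaled CPM was 36.7, 36.2 and 38.8 in Ctrl, 85.9, 81.1 and 80.1 in Cu-Cys and 105.8, 90.2 and 100.4 in Cadict. The groups did not overlap, and on this scale Cu-Cys lay nearer to Cadict than to Ctrl. The log2 fold change was 1.14 (SE 0.063, adjusted p 1.1e-08) in Cu-Cys against Ctrl, higher than in 99.4% of all tested genes. In Cadict against Ctrl it was 1.41 (SE 0.065, adjusted p 8.7e-12), higher than in 86.1%. Library totals left 0.45 of the latter, and the log2 of deposited TPM left 0.08, which no longer passed the test (adjusted p 0.474 in limma). The median of all tested genes on that TPM scale was -1.13. Between the treatments Gclc was 0.26 higher in Cadict on the log2 scale (adjusted p 0.001) with TMM and 0.62 lower with library totals (log2 fold change -0.62), so its direction there depends on the scaling. The TMM change lay above those of 60.7% of all tested genes.

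Gclm (Entrez 14630), the modifier subunit, had a TMM-scaled CPM of 39.2, 43.3 and 46.0 in Ctrl, 73.4, 79.8 and 82.8 in Cu-Cys and 493.1, 461.6 and 501.2 in Cadict. Every Cadict library was several times above every other library. The unscaled counts ran the same way, from 907 to 1056 in Ctrl, 1590 to 1815 in Cu-Cys and 5297 to 5969 in Cadict. The log2 fold change was 3.50 (SE 0.069, adjusted p 6.9e-16) in Cadict against Ctrl and 0.88 (SE 0.067, adjusted p 2.1e-07) in Cu-Cys against Ctrl. It was 2.63 (SE 0.065, adjusted p 1.1e-14) in Cadict against Cu-Cys. These changes lay above those of 98.3%, 98.9% and 97.1% of all tested genes, and with library totals they were 2.55, 0.81 and 1.74. Of the distinct 50-base stretches of annotated Gclm transcripts, 3.92% also occur in transcripts of other genes, Ppia most often, antisense Gm17494 shares 4.71% of its exonic bases, and the pseudogene Gm6061 on the same strand shares 3.88%. Strand was not stated for these libraries, so reads of overlapping genes cannot be told apart, and those of Gm6061 would not be separated by strand in any case.

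The ratio of Gclm to Gclc counts within a library needs no scaling between libraries. On the log2 scale it was 0.10, 0.26 and 0.25 in Ctrl, -0.23, -0.02 and 0.05 in Cu-Cys and 2.22, 2.36 and 2.32 in Cadict. The subunit transcripts thus had similar counts in Ctrl and Cu-Cys, and Gclm counts were 4.92 times those of Gclc in Cadict. The mean ratio was 4.28-fold higher in Cadict than in Ctrl and 5.16-fold higher than in Cu-Cys. Every Cu-Cys library lay below every Ctrl library, by 0.27 on average. The two-sided exact permutation p was 0.1 in each of these comparisons, the smallest that 3 against 3 libraries allow. On deposited TPM, which divides by transcript length, the mean log2 ratios were 0.95, 0.69 and 3.06 in Ctrl, Cu-Cys and Cadict.

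Gss (Entrez 14854) encodes the enzyme of the last step. Its TMM-scaled CPM was 9.73, 11.6 and 10.3 in Ctrl, 17.7, 15.6 and 15.8 in Cu-Cys and 20.5, 25.1 and 20.5 in Cadict. The groups did not overlap on this scale. Gss rose in Cu-Cys over Ctrl by 0.64 on the log2 scale (SE 0.097, adjusted p 0.000115), more than 97.5% of all tested genes. In Cadict against Ctrl it was 1.06 higher (SE 0.10, adjusted p 7.2e-08), but 0.11 with library totals (adjusted p 0.299) and -0.22 on log2 TPM. Between the treatments Gss was 0.42 higher in Cadict with TMM (adjusted p 0.000777) and lower with library totals (log2 fold change -0.46). With TMM, the change in Cadict lay above those of 80.1% of all tested genes against Ctrl and 65.6% against Cu-Cys. The unscaled counts, 225 to 268 in Ctrl, 342 to 384 in Cu-Cys and 241 to 288 in Cadict, showed Ctrl and Cadict libraries side by side. Exons of Acss2 on the other strand cover 6.68% of the exonic bases of Gss and those of the antisense genes Gssos1 and Gssos2 5.44% and 6.51%. Against Ctrl, Acss2 had log2 fold changes of -0.70 in Cadict and -0.68 in Cu-Cys.

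The log2 ratio of Gss to Gclc counts within a library was -1.91, -1.64 and -1.92 in Ctrl, -2.28, -2.37 and -2.34 in Cu-Cys and -2.37, -1.85 and -2.29 in Cadict. Relative to the catalytic subunit, Gss was lower in every Cu-Cys library than in every Ctrl library (mean difference -0.51, exact permutation p 0.1). The Cadict libraries overlapped both other groups, with mean differences of -0.34 from Ctrl (exact permutation p 0.3) and 0.16 from Cu-Cys (exact permutation p 0.6). Without Cadict replicate 2 the latter was -0.000504.

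Cth (Entrez 107869) had 30, 44 and 52 counts in Ctrl, 45, 38 and 37 in Cu-Cys and 364, 333 and 361 in Cadict. The TMM-scaled CPM was 1.82 ± 0.49 in Ctrl, 1.83 ± 0.21 in Cu-Cys and 30.1 ± 0.97 in Cadict (SD, n = 3). Ctrl and Cu-Cys libraries overlapped, and all Cadict libraries were far above both. The log2 fold change was 4.04 (SE 0.13, adjusted p 1.0e-13) in Cadict against Ctrl and 4.03 (SE 0.13, adjusted p 1.5e-13) in Cadict against Cu-Cys. It exceeded that of 98.6% and 98.9% of all tested genes, and was 3.09 and 3.15 with library totals. For Cu-Cys against Ctrl it was 0.01 with a 95% interval of -0.41 to 0.42 (adjusted p 0.978), and -0.06 with library totals. The TMM value lay above those of 50.3% of all tested genes. Relative to Gclc within the same library, the log2 ratio of Cth was -4.39 in Ctrl, -5.49 in Cu-Cys and -1.71 in Cadict, with no overlap between groups (exact permutation p 0.1 in each comparison).

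**Figure D2:**
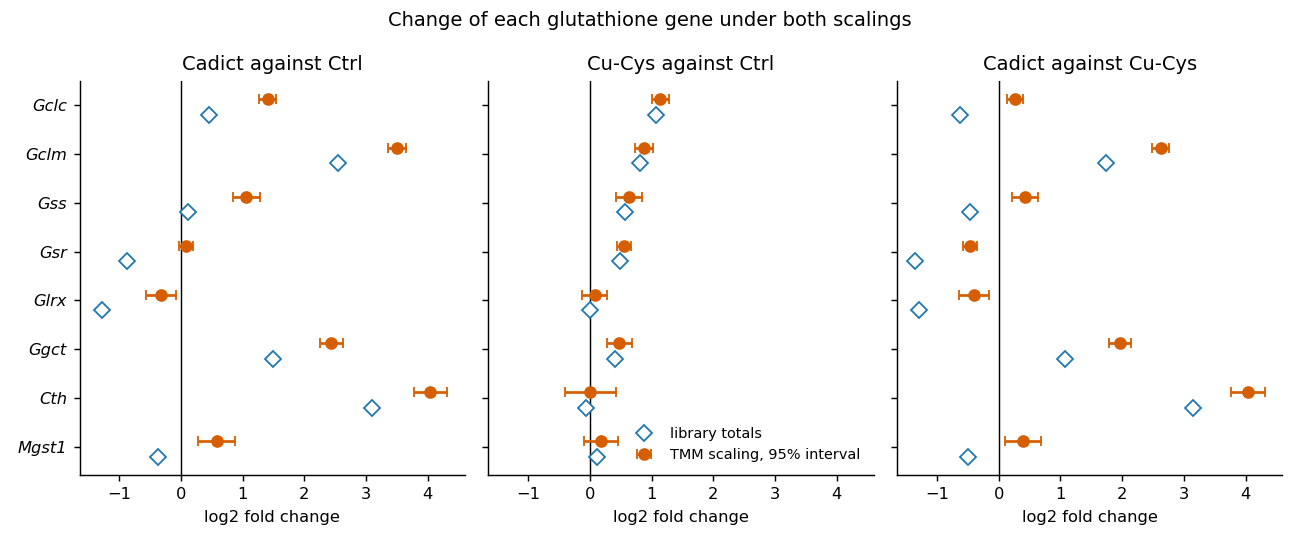
Log2 fold change (x axis) of each glutathione gene (y axis) in the 3 comparisons. Filled circles are TMM scaling with the 95% interval of the edgeR fit, and open diamonds the same fit with library totals. Gclm, Ggct and Cth stayed above 0 under both in the comparisons with Cadict, whereas Gclc, Gss and Mgst1 moved below 0 in Cadict against Cu-Cys and Gsr and Mgst1 in Cadict against Ctrl.

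Gsr (Entrez 14782), the reductase that recycles oxidised glutathione, was the gene of the 8 with the highest level in Ctrl. Its TMM-scaled CPM was 132.8, 130.3 and 133.0 in Ctrl, 193.1, 191.4 and 197.4 in Cu-Cys and 130.3, 139.2 and 149.7 in Cadict. Cu-Cys libraries were above all others, and Cadict libraries overlapped Ctrl ones. Gsr rose by 0.55 on the log2 scale in Cu-Cys against Ctrl (SE 0.052, adjusted p 1.4e-06, above 96.4% of all tested genes), and by 0.49 with library totals. It was lower in Cadict than in Cu-Cys (log2 fold change -0.47, SE 0.053, adjusted p 5.3e-07) under both scalings. Against Ctrl, Cadict gave 0.08 (95% interval -0.03 to 0.20, adjusted p 0.159), which became 0.20 with DESeq2 size factors (adjusted p 0.00228) and -0.87 with library totals (adjusted p 3.8e-10). Without Cadict replicate 1 it was 0.13 (adjusted p 0.0416). With TMM, the change in Cadict lay above those of 56.0% of all tested genes against Ctrl and 38.9% against Cu-Cys. The log2 ratio of Gsr to Gclc within a library, which is free of the scaling, was 1.83 in Ctrl, 1.24 in Cu-Cys and 0.50 in Cadict, and no 2 groups overlapped (exact permutation p 0.1 in each comparison).

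Glrx (Entrez 93692), the glutaredoxin of the cytosol, had 171, 172 and 163 counts in Ctrl, 155, 169 and 182 in Cu-Cys and 75, 61 and 69 in Cadict. Its TMM-scaled CPM was 7.32 ± 0.18, 7.73 ± 0.57 and 5.83 ± 0.53 (SD, n = 3). Every Cadict library was below every library of the other groups. The log2 fold change in Cadict against Ctrl was -0.33 (SE 0.11, adjusted p 0.0139) and did not pass the test with DESeq2 size factors (-0.21, adjusted p 0.0991), in DESeq2's Wald test (adjusted p 0.181) or without Cadict replicate 2 (adjusted p 0.0657). With library totals it was -1.28. Against Cu-Cys it was -0.41 (SE 0.11, adjusted p 0.00366). With TMM, the change in Cadict lay above those of 44.7% of all tested genes against Ctrl and 40.9% against Cu-Cys. Cu-Cys against Ctrl gave 0.08 with a 95% interval of -0.12 to 0.28 (adjusted p 0.528), above 60.6% of all tested genes.

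Ggct (Entrez 110175), of the turnover of gamma-glutamyl peptides, had a TMM-scaled CPM of 6.23, 6.28 and 6.41 in Ctrl, 8.26, 9.01 and 9.08 in Cu-Cys and 30.8, 35.6 and 36.1 in Cadict. The groups rose in this order without overlap. The log2 fold change was 2.44 (SE 0.087, adjusted p 4.2e-13) in Cadict against Ctrl and 1.96 (SE 0.083, adjusted p 4.2e-12) in Cadict against Cu-Cys. Both stayed above 0 with library totals (1.48 and 1.07) and on log2 TPM (0.72 and 0.45). Against Ctrl it was 0.48 in Cu-Cys (SE 0.097, adjusted p 0.00104), and on log2 TPM 0.27, which did not pass the test (adjusted p 0.0827 in limma).

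Mgst1 (Entrez 56615), the membrane-bound transferase, was low throughout. It had 88, 96 and 90 counts in Ctrl, 92, 93 and 110 in Cu-Cys and 79, 70 and 59 in Cadict, so the unscaled counts were lowest in Cadict. The TMM-scaled CPM ran the other way, with 3.96 ± 0.18, 4.50 ± 0.44 and 5.92 ± 0.89 (SD, n = 3). In Cadict against Ctrl the log2 fold change was 0.58 with TMM (SE 0.14, adjusted p 0.00127) and -0.37 with library totals (adjusted p 0.0183). In Cadict against Cu-Cys it was 0.39 (adjusted p 0.0159) and -0.49. The latter call was lost without Cadict replicate 1 (adjusted p 0.0945) without Cu-Cys replicate 2 (adjusted p 0.0514) and with no filter on low counts (adjusted p 0.0641). The value in Cu-Cys against Ctrl was 0.19 with a 95% interval of -0.09 to 0.46 (adjusted p 0.267). The change of Mgst1 lay above those of 68.9% of all tested genes in Cadict against Ctrl. The shares were 74.7% in Cu-Cys against Ctrl and 64.6% in Cadict against Cu-Cys.

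**Figure D3:**
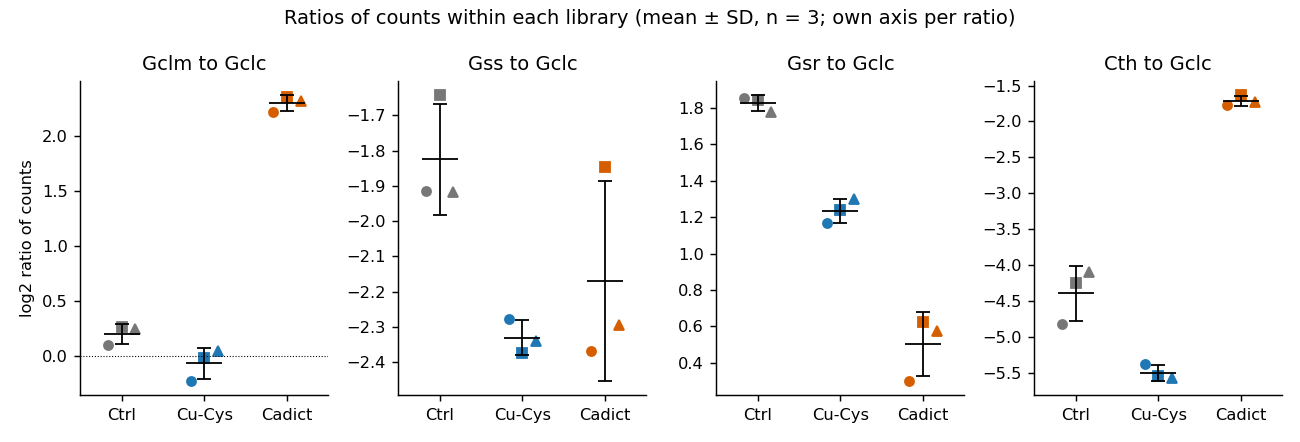
Log2 ratio of counts (y axis, own range per panel) of Gclm, Gss, Gsr and Cth to Gclc within each library of Ctrl, Cu-Cys and Cadict (x axis). Circles, squares and triangles are replicates 1, 2 and 3, and bars the mean ± SD (n = 3). Gclm and Cth were higher relative to Gclc in Cadict, Gsr was lower in each treatment, and Gss overlapped between Cadict and both other groups.

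Levels per transcript length, as deposited TPM, allowed the genes to be ordered within a group. In Ctrl, Gsr was first with 120.2 ± 2.8 TPM, followed by Gclm with 52.5 ± 3.4 and Gclc with 27.2 ± 0.78. Ggct (17.6 ± 3.1) and Glrx (15.7 ± 0.54) overlapped, as did Gss (13.8 ± 1.1) and Mgst1 (13.5 ± 0.41), and Cth was last with 2.64 ± 0.67. The first 4 places and the last were held by the same genes in Cu-Cys, where Gsr had 159.9 ± 4.6 TPM, Gclm 87.2 ± 5.9 and Gclc 54.0 ± 2.3. There, Gss (19.7 ± 1.3) overlapped Ggct and stood above Glrx (15.0 ± 1.2), which in turn overlapped Mgst1. In Cadict the order opened with Gclm at 241.3 ± 33 TPM, and Gsr followed with 51.7 ± 7.2. Ggct (29.6 ± 3.9) and Gclc (28.9 ± 4.5) overlapped, Cth came next with 17.8 ± 2.0, and Glrx was last with 5.05 ± 0.82. Gclm and Gsr thus changed places, and Cth moved from the last place to the fifth. The summed TPM of the 8 genes was 263.2 ± 5.1 in Ctrl, 373.4 ± 11 in Cu-Cys and 394.1 ± 49 in Cadict, with overlap between both treatments. Their summed TMM-scaled CPM was 242.1 ± 5.4, 394.2 ± 5.2 and 821.9 ± 29 in the same order. On that scale every Cadict library lay above every Cu-Cys library, so the comparison of the sums between treatments depends on the scaling.

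**Figure D4:**
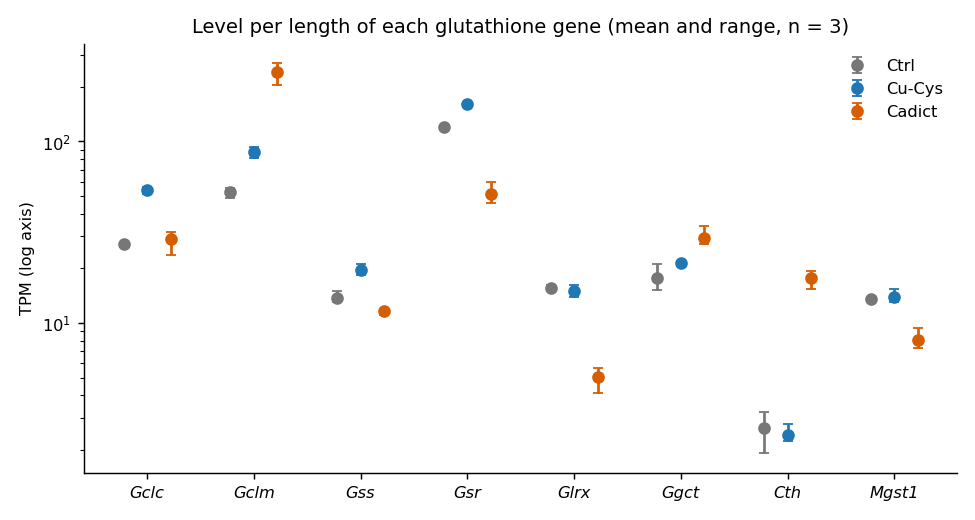
Deposited TPM (y axis, log scale) of each glutathione gene (x axis) in Ctrl, Cu-Cys and Cadict, as the mean and the range of 3 libraries. Gsr was highest in Ctrl and Cu-Cys and Gclm in Cadict, and Cth lay lowest in Ctrl and Cu-Cys.

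Genes around these 8 in glutathione metabolism were taken from lists of 94 other genes, of which 87 were in the table and 64 were tested. The lists were also made with earlier results of these data known. In Cadict against Ctrl 44 of the 64 tested genes passed the test upward and 15 downward, beside 40.6% and 47.1% of all tested genes. The middle log2 fold change was 0.67 against -0.13 over all genes. With library totals the counts were 26 and 33, beside 18.1% and 73.1%, and the median -0.28 against -1.08. In Cu-Cys against Ctrl 26 passed upward and 9 downward with TMM, beside 22.6% and 22.4%, with a median of 0.11 against 0.01. Cadict against Cu-Cys gave 44 and 13 beside 40.3% and 45.6%, with a median of 0.76 against -0.10. With library totals it gave 22 and 31 beside 17.3% and 72.0%, and a median of -0.13 against -0.98.

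Of the 11 tested genes of precursor supply, 7 passed upward and 3 downward in Cadict against Ctrl, beside 40.6% and 47.1% of all tested genes, and 4 and 7 with library totals, beside 18.1% and 73.1%. The same shares of all genes apply to the lists that follow. Slc3a2, the heavy chain of amino acid transporters including the cystine importer, had 156.2 ± 4.0 TMM-scaled CPM in Ctrl, 184.1 ± 6.1 in Cu-Cys and 1234.0 ± 84 in Cadict (SD, n = 3), a log2 fold change of 2.98 in Cadict against Ctrl (2.03 with library totals). Slc7a11, the transport subunit of that importer, was named after its values were seen. It gave 1.47 in Cadict (adjusted p 1.4e-11, 0.52 with library totals and 0.10 on log2 TPM) and 0.13 in Cu-Cys against Ctrl (adjusted p 0.137). Mat2b, a subunit of the enzyme that makes S-adenosylmethionine, had the largest fall of the list among genes of at least 1 CPM, by 1.78 on the log2 scale. Mtrr, which reactivates methionine synthase, rose by 0.41 in Cu-Cys and fell by 1.13 in Cadict against Ctrl.

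Breakdown genes moved both ways. Of 5 tested, 3 passed upward and 2 downward in Cadict against Ctrl, and 2 and 3 with library totals. Cndp2, a dipeptidase that splits cysteinylglycine, had a log2 fold change of 1.77, whereas that of Anpep, a surface aminopeptidase, was -2.24. The Cu-Cys against Ctrl values of Lap3, a leucine aminopeptidase, and of Anpep were 0.37 and -0.31.

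All 4 tested peroxidases passed upward in Cadict against Ctrl with TMM, but 2 passed upward and 2 downward with library totals. Prdx6, a peroxiredoxin that uses glutathione, had a log2 fold change of 2.39 in Cadict and 0.51 in Cu-Cys. Among the 17 tested glutathione S-transferases 9 passed upward and 5 downward in Cadict against Ctrl, and 6 and 10 with library totals. In Cu-Cys they numbered 5 and 4, beside 22.6% and 22.4% of all tested genes. Gstp2 had the largest rise of those with at least 1 CPM (log2 fold change 2.62), although 54.3% of its 50-base stretches are shared with other genes, Gstp1 most often. Ptges2, a prostaglandin E synthase, had -2.30. In Cu-Cys the largest values in each direction among those that passed with at least 1 CPM were 0.67 for Gsto1, an omega-class transferase, and -0.40 for Gstz1, of tyrosine breakdown.

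Esd, which hydrolyses S-formylglutathione, changed most of the 8 tested genes of glutaredoxins and thioester enzymes. Its TMM-scaled CPM was 146.5 ± 5.6 in Ctrl, 416.3 ± 19 in Cu-Cys and 1470.9 ± 113 in Cadict (SD, n = 3). On the log2 scale these were rises of 3.33 in Cadict and 1.51 in Cu-Cys over Ctrl, and 2.37 and 1.44 with library totals. Of the 50-base stretches of Esd transcripts, 7.76% also occur in transcripts of other genes, Gm5456 most often. Glo1, the first enzyme of methylglyoxal removal, had -0.91 in Cadict. Of 11 tested genes of NADPH supply and glutathione transport, 9 passed upward and 2 downward in Cadict, and 6 and 5 with library totals. Pgd, of the pentose phosphate pathway, had 1.95 in Cadict and 0.88 in Cu-Cys, while Idh1, the cytosolic NADP-dependent isocitrate dehydrogenase, had -1.82 in Cadict. Slc25a40, a mitochondrial glutathione carrier, had -0.24 in Cu-Cys against Ctrl and 1.46 in Cadict against Cu-Cys, the latter turning to -0.51 on log2 TPM.

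All 8 regulators were tested, and 6 passed upward and 2 downward in Cadict against Ctrl, and 4 and 3 with library totals. Maff, a small partner protein of NRF2, had 23.8 ± 1.5 TMM-scaled CPM in Ctrl, 35.3 ± 0.37 in Cu-Cys and 574.7 ± 24 in Cadict (SD, n = 3), a log2 fold change of 4.60 in Cadict and 0.57 in Cu-Cys. Keap1, which targets NRF2 for degradation, had -1.32 in Cadict against Ctrl. Nfe2l1, an NRF2 relative, had -0.30 in Cu-Cys. Nfe2l2, which encodes NRF2 itself and was named after its values were seen, had 1.19 in Cadict (adjusted p 1.5e-11), 0.24 with library totals and -0.12 on log2 TPM. In Cu-Cys its value was -0.10 (adjusted p 0.178). The following were also named after their values were seen. In Cadict against Ctrl Bach1 had 0.89 (adjusted p 9.7e-08), -0.06 with library totals and -0.36 on log2 TPM. Atf4, which encodes ATF4, had 0.68 (adjusted p 1.2e-08), -0.28 and -0.61 in the same order. Mafg and Mafk had 1.24 and 4.24, and 0.29 and 3.28 with library totals. All values named from the lists are edgeR log2 fold changes with TMM scaling where not stated otherwise, and those named by the rule had adjusted p of at most 0.05.

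**Figure D5:**
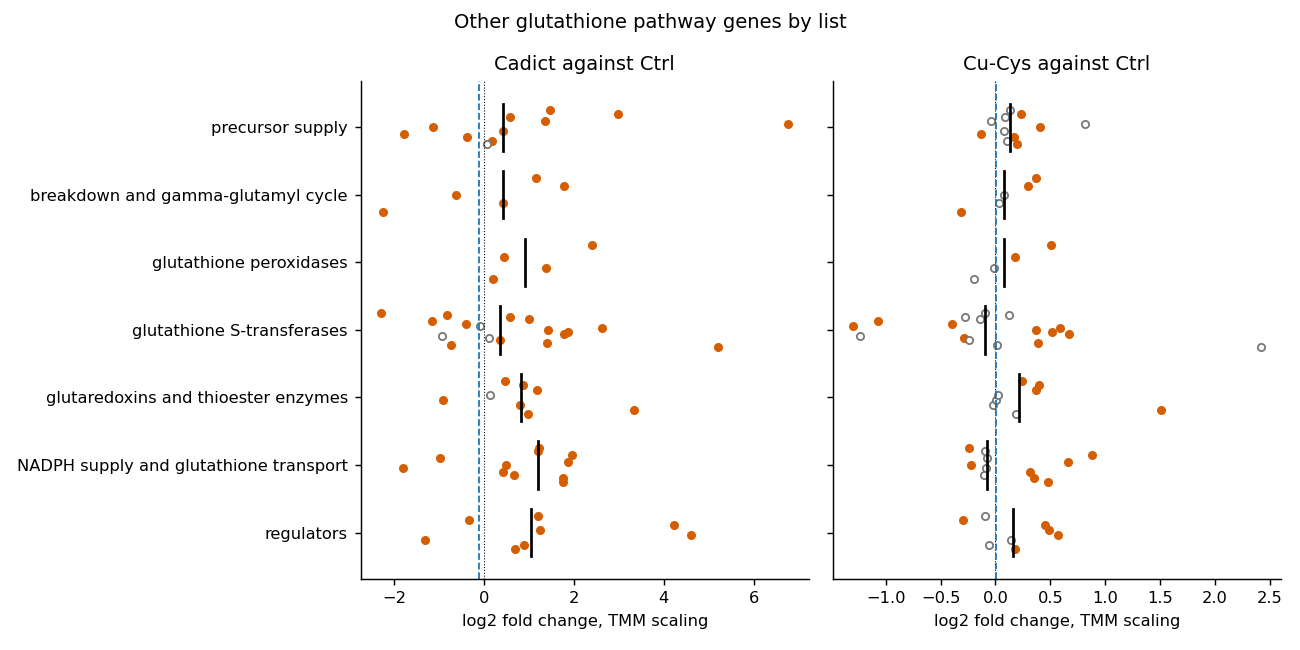
Log2 fold change with TMM scaling (x axis, own range per panel) of each tested gene in the lists of other glutathione pathway genes (y axis) in Cadict and in Cu-Cys against Ctrl. Filled points passed the test, open points did not, black bars are list medians and the dashed line the median of all tested genes. In Cadict the list medians lay between 0.34 and 1.20, and with library totals those of 5 of the 7 lists were below 0.

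The genes whose scaled levels were most like those of each gene over the 9 libraries were found among 8545 tested genes of at least 10 CPM, by the root mean square difference of log2 CPM centred on Ctrl. Nearest to Gclm were Eaf1 (0.12) and Mfsd11 (0.16), and nearest to Ggct Hspd1 (0.071) and Rrp15 (0.089). Cth had the loosest match, with Egr1 (0.25) and Bag3 (0.27), while the nearest to Gclc was Flcn (0.17). The closest genes to Gss were Nop2 (0.087) and Aven (0.11) and to Mgst1 Tbc1d10a (0.087) and Idh3g (0.091). Gsr was matched by Nkain1 (0.041) and Tsr1 (0.051), and Glrx by Ttll4 (0.060) and Eml4 (0.063). All 9 libraries are shared by each such pair, and the measure describes them alone.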

How the data were processed

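Polyadenylated RNA of MC38 cells was sequenced in 9 libraries, and groups were taken from the sample titles. The authors deposited 1 table with an expected count (an estimated read count per gene, not normalized) and a TPM for each gene and library. The submitters' processing notes name HISAT2 2.1.0, Bowtie2 2.3.4.3 and RSEM 1.3.1, with builds of human and mouse, the mouse one being GRCm39. Columns labelled CC and CCGE were read as Cu-Cys and Cadict, the latter by its components. The labels and the study's text name different RNA kits and sequencers. The deposited FPKM and size-factor counts (18 columns) and group averages (12 columns) were not used.

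Expected counts were rounded and fitted in R 4.3.3 with edgeR 4.0.16 (filterByExpr, TMM, quasi-likelihood test, all 3 groups in 1 model), with Benjamini-Hochberg adjustment over 11949 genes. The fit was tested on simulated data. SE was the absolute log2 fold change divided by the square root of F. Deposited TPM values served for levels per length and, with limma 3.58.1 on log2(TPM + 1), as an alternative. Other alternatives were DESeq2 1.42.0 (size factors, Wald test), library totals, a pseudocount of 0.1, filters of at least 10 counts in every library or none, the replicate number as a block and leaving out each library. Ratios were tested by two-sided exact permutation over libraries.

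Named were all 8 genes. From each list and comparison, the largest rise and fall were named among genes with an adjusted p of at most 0.05 and at least 1 CPM, and for each of the 8 genes the 2 nearest in pattern among genes of at least 10 CPM, of which 1 is not reported here. The genes and lists were chosen with earlier results of these data known. Shared stretches and exon overlaps were taken from GENCODE M21, and promoters from RefSeq.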

Additional observations from a re-analysis of the deposited data

How the results depend on the processing

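With library totals, the glutathione genes passing downward in Cadict against Ctrl numbered 3 beside 73.1% of all tested genes, and those in Cadict against Cu-Cys 3 upward beside 17.3% and 5 downward beside 72.0%. The other pathway genes then numbered 26 upward and 33 downward in Cadict against Ctrl, beside 18.1% and 73.1%. In Cu-Cys against Ctrl 14 passed downward beside 28.9%, and in Cadict against Cu-Cys 22 passed upward and 31 downward, beside 17.3% and 72.0%. Limma on log2 TPM changes the test, the input and the length correction together, and it also leaves out TMM scaling. Over all 11949 genes the middle change in Cadict against Ctrl was -1.13 with TPM + 1, -1.08 with library totals and -0.13 with TMM. With limma at either pseudocount, the glutathione genes numbered 3 upward and 4 downward in Cadict against Ctrl. They numbered 3 and 5 in Cadict against Cu-Cys. The other pathway genes numbered 15 and 39, 16 upward in Cu-Cys against Ctrl, and 11 and 39. With TPM + 1, all 11949 tested genes numbered 1425 upward and 9542 downward in Cadict against Ctrl. They numbered 897 upward in Cu-Cys against Ctrl, and 1367 upward and 9271 downward in Cadict against Cu-Cys. With DESeq2 size factors or its Wald test, 7 glutathione genes passed upward and 0 downward in Cadict against Ctrl. Over all tested genes these numbered 5219 and 5233 of 11949 with size factors, and 5534 and 5224 of 14552 in the Wald test. The Wald test gave 5 other pathway genes downward in Cu-Cys against Ctrl, beside 1942 of 12956 genes. TMM and library totals differ by construction in the scale factor alone. For the other changes the cause was not tested.

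Signs that reversed, given as log2 fold changes with library totals, TPM + 1 and TPM + 0.1, were in Cadict against Cu-Cys -0.62, -0.89 and -0.91 for Gclc, -0.46, -0.70 and -0.75 for Gss, and -0.49, -0.72 and -0.78 for Mgst1. In Cadict against Ctrl they were -0.87, -1.21 and -1.23 for Gsr and -0.37, -0.69 and -0.75 for Mgst1, and for Gss -0.22 and -0.24 on TPM alone. In Cu-Cys against Ctrl, where neither had passed the test, Glrx gave -0.066 and -0.070 on TPM, and Cth -0.060 with library totals, -0.015 with at least 10 counts in every library, and -0.070 and -0.088 on TPM.

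Leaving out each library in turn gave 0 to 1 glutathione genes downward in Cadict against Ctrl. The 0 came without Cadict replicate 2, where 5635 of all 12079 tested genes passed downward. In Cu-Cys against Ctrl 5 to 13 other pathway genes passed downward. The 5 came without Ctrl replicate 2 (beside 2176 of all 12066 genes) or 3 (2167 of 12073). The 13 came without Cadict replicate 2 (3208 of 12079). Cth in Cu-Cys against Ctrl ran from -0.19 to 0.20, and the log2 ratio of Gss to Gclc in Cadict against Cu-Cys from -0.000504 to 0.26.

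With the replicate number as a block, 6 upward and 1 downward, 5 and 0, and 6 and 2 glutathione genes passed in the 3 comparisons. Over all 11949 tested genes the block gave 4835 and 5582, 2609 and 2532, and 4788 and 5400. With it, 11 other pathway genes passed downward in Cu-Cys against Ctrl against 9 without the block. Residuals of same-numbered libraries correlated at -0.20 to 0.17 over 8551 genes, so the numbers were not read as a pairing. The block moved no count by more than 1.5 times. Counting depth limits Cth in Ctrl and Cu-Cys, with 30 to 52 and 37 to 45 counts per library, and Mgst1, with 59 to 110 over all libraries.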
